A study of Homo sapiens with 16 samples.

Results

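The regions described here were stretches of chromosomes 1 to 19 in which the ovarian cancer line A2780 and its cisplatin (cPt)-resistant derivative A2780cis both carried a listed H3K27ac peak and both carried a listed H3K9ac peak. They were chosen by measured peaks. H3K27ac peaks of A2780 and A2780cis were joined into 1 region where they overlapped, and regions over 2 kb and up to 10 kb were kept where both lines had a peak and where the region overlapped, by 1 bp or more, an H3K9ac peak of A2780 and an H3K9ac peak of A2780cis. This gave 5783 regions out of 31493 merged regions of any width. They made up 41.1% of the 14075 merged regions over 2 and up to 10 kb, and 60.2% (95% Wilson interval 59.2% to 61.2%) of the 9607 regions of these widths with H3K27ac in both lines. Because the H3K27ac and H3K9ac lists of A2780 and A2780cis made the choice, all that is read from them is a description. The H3K27ac lists of CAOV4, CAOV4cis and A2780 cells with a hairpin against MBD3 took no part in it, and the regions were followed across these 4 lists.

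All libraries came from established human epithelial ovarian cancer lines. A2780 is sensitive to cPt and untreated, and A2780cis, which the labels give as cisplatin treated, is kept with the drug. CAOV4 is an untreated line of serous origin, and CAOV4cis cells were derived from it by prolonged treatment with rising concentrations of cPt and are also kept with it, so that resistance and presence of the drug cannot be told apart in either pair. The hairpin cells were Tet-on A2780 cells transduced with a lentiviral, doxycycline-inducible shRNA, shMBD3.26 or shMBD3.232, selected with G418, sorted for GFP and taken after 1 week of knockdown. They descend from the line that helped choose the regions. Cells with a control shRNA were not analysed here, so effects of the hairpin, the transduction, the selection and doxycycline cannot be told apart, and the lists do not show how far MBD3 was lowered.

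Acetylation of histone H3 loosens the hold of nucleosomes on DNA and is read by bromodomain proteins. H3K27ac is placed largely by the acetyltransferases EP300 and CREBBP and marks active promoters as well as active distal enhancers. H3K9ac is placed largely by KAT2A and KAT2B and lies mainly close to the start sites of active genes, although enhancers can carry it. MBD3 is a subunit of the NuRD complex, which slides nucleosomes and removes acetyl groups through its histone deacetylases. cPt forms crosslinks in DNA, and tumor cells under prolonged exposure can become resistant to it.

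Each condition had 1 library, so no difference between lines or hairpins has a replicate check and no test of a condition was made. The lists give the position and width of peaks but no signal, and the read depth underlying them is unknown. On chromosomes 1 to 19, the autosomes analysed here, the 8 lists held from 15058 (A2780cis H3K9ac) to 27932 peaks (A2780 H3K27ac), with median widths from 1600 to 2600 bp in 7 of them and 2800 bp in A2780cis H3K27ac. Intervals are 95% Wilson intervals for a share and 95% Newcombe intervals for a difference of shares. They cover counting error only, and neighboring regions share a chromosome and are not independent replicates. Positions follow build GRCh37 (hg19), the build in the submitters' processing notes.

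H3K9ac was present in both lines at these regions but did not run through the whole of them. The regions had a median width of 5200 bp (quartiles 3800 and 7000 bp). H3K27ac peaks covered a median of 85.7% of the region in A2780 and 93.9% in A2780cis, whereas H3K9ac peaks covered 56.7% in A2780 and 62.0% in A2780cis. In the line where it covered less, H3K9ac covered a median of 47.6% of the region (quartiles 33.3% and 62.9%). It covered 50% or more in both lines at 2763 regions, or 47.8%, and the entire region in both lines at 45, or 0.778%. These lengths end at the limits of the region, and H3K9ac peaks ran past them at 1723 regions (29.8%) in A2780 and at 1952 (33.8%) in A2780cis. At 221 regions, or 3.82%, the overlap in 1 of the lines was 400 bp or less.

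The H3K9ac peaks of both lines lay largely on the same stretch. A stretch under H3K9ac in both A2780 and A2780cis existed at 5652 of the 5783 regions and measured a median of 2200 bp. The other 131 regions had H3K9ac in both lines without a shared base. The shared length divided by the length under H3K9ac in either line had a median of 0.625 (quartiles 0.448 and 0.769). The centre of the shared stretch lay a median of 600 bp from the centre of the region. The length under H3K9ac was larger in A2780cis at 3151 regions (54.5%) and smaller at 2239 (38.7%), with a median difference of 200 bp, which is 1 step of the grid of 200 bp on which the boundaries of the lists lie. H3K27ac was longer in A2780cis at 3265 regions (56.5%) and shorter at 2225 (38.5%), with a median difference of 400 bp. Across the full lists, peaks were also wider in A2780cis. Their median widths were 2600 bp against 1600 bp in A2780 for H3K9ac, and 2800 bp against 2200 bp for H3K27ac. The part of this in the covered lengths was not tested.

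H3K27ac was listed at most of these regions in each of the 4 lists that took no part in the choice. A CAOV4 peak was present at 4446 regions, or 76.9% (75.8% to 77.9%), against 49.7% of all merged regions of these widths. CAOV4cis had a peak at 4406, or 76.2% (75.1% to 77.3%), against 50.6%. In the hairpin cells, which share their parent line with the choice, the shares were higher, with 5671 regions, or 98.1% (97.7% to 98.4%), for shMBD3.26 against 75.4% of all merged regions, and 5577, or 96.4% (95.9% to 96.9%), for shMBD3.232 against 72.0%. All 4 lists had a peak at 3816 regions, or 66.0% (64.8% to 67.2%), against 36.2% of all merged regions. The all-region figures include the regions themselves.

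Regions of the same widths with H3K27ac in both lines but no H3K9ac peak in either numbered 1409 and had H3K27ac less often in every one of the 4 lists. Their shares were 34.1% in CAOV4, 35.5% in CAOV4cis, 65.9% with shMBD3.26 and 63.9% with shMBD3.232. The regions with H3K9ac in both lines stood higher by 42.7 percentage points (40.0 to 45.4) in CAOV4 and by 40.7 points (37.9 to 43.4) in CAOV4cis. In the hairpin cells they stood higher by 32.2 points (29.7 to 34.7) for shMBD3.26 and by 32.5 points (30.0 to 35.1) for shMBD3.232. A peak in all 4 lists was found at 15.6% of the regions without H3K9ac, which is 50.4 points lower (48.0 to 52.5). Both classes have H3K27ac in A2780 and A2780cis by the rule and differ in the H3K9ac lists and in width. The strength of H3K27ac and the distance to gene starts were not measured, so the classes may differ in these too.

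Regions with H3K9ac in 1 of the lines lay between these classes. Of 1233 common regions with H3K9ac in A2780 only, 33.9% (31.3% to 36.6%) had a peak in all 4 lists, and of 1182 with H3K9ac in A2780cis only, 38.1% (35.3% to 40.9%) did. Their intervals overlap. Against the former, the regions with H3K9ac in both lines stood higher by 28.6 points (25.6 to 31.6) in CAOV4 and by 12.7 points (10.8 to 14.8) with shMBD3.26. Against the latter, the differences were 22.99 points (19.96 to 26.03) in CAOV4 and 12.6 points (10.7 to 14.8) with shMBD3.26. Regions with H3K27ac in 1 line had peaks in all 4 lists more rarely, at 5.57% of 2963 A2780-only and 2.06% of 1505 A2780cis-only regions. In each of the 4 lists, common regions with H3K9ac in both lines thus stood highest, those with H3K9ac in 1 line came next and those without it stood lowest.

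**Figure D1:**
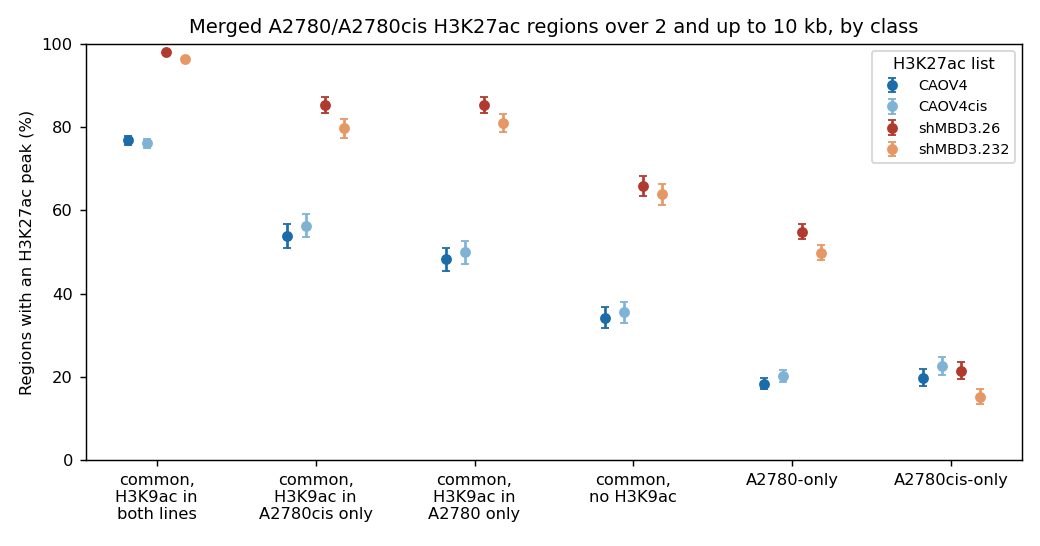
Share of merged H3K27ac regions over 2 and up to 10 kb with an H3K27ac peak (y axis, %) in each of the 4 lists that took no part in the choice, by class of region (x axis). Points are shares and bars are 95% Wilson intervals, which cover counting error only. Regions with H3K9ac in both lines lie highest, at 76.9% and 76.2% in the CAOV4 lines and at 98.1% and 96.4% with the hairpins, and common regions without H3K9ac lie at 34.1% to 65.9%.

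Where a described list had a peak, it covered much of the region. CAOV4 peaks covered a median of 60.0% of the regions at which they were present, CAOV4cis peaks 66.7%, shMBD3.26 peaks 69.7% and shMBD3.232 peaks 72.3%. A single peak did so at 90.2% (CAOV4cis) to 93.5% (shMBD3.232) of these regions. The peaks often ran past the region, at 40.4% of the regions for CAOV4, 51.4% for CAOV4cis, 30.0% for shMBD3.26 and 34.4% for shMBD3.232. By construction no H3K27ac peak of A2780 or A2780cis can do so, and their covered shares are for this reason not comparable with those of the described lists.

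The 3816 regions with a peak in all 4 lists were the wider ones, with a median width of 5600 bp and 2600 bp of H3K9ac in the line where it was shorter. The 3 of them named here are those with the largest share under H3K9ac in the line with less, ties taken by width and then by position. At chr1:147009801-147017600, a region of 7.8 kb, H3K9ac covered the full 7.8 kb in both A2780 and A2780cis. H3K27ac covered 7.8 kb there in A2780, 6.6 kb in A2780cis, 3.0 kb in CAOV4, 3.2 kb in CAOV4cis, 6.0 kb with shMBD3.26 and 7.8 kb with shMBD3.232. Peaks of the CAOV4 lines thus covered less of this region than those of the A2780 cells and the cells derived from them. At chr1:160308601-160314600, of 6.0 kb and wholly under H3K9ac in both lines, H3K27ac covered 4.4 kb in A2780, 5.8 kb in A2780cis, 4.6 kb in CAOV4, 4.8 kb in CAOV4cis and 5.6 kb with each hairpin. Here the peaks of CAOV4 and CAOV4cis covered slightly more of the region than that of A2780. At chr6:21592601-21598600, also 6.0 kb and wholly under H3K9ac in both lines, the covered lengths were 5.8 kb in A2780, 6.0 kb in A2780cis, 4.8 kb in CAOV4, 2.0 kb in CAOV4cis, 5.6 kb with shMBD3.26 and 4.8 kb with shMBD3.232. CAOV4cis stood lowest in this region.

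At 661 regions, or 11.4% (10.6% to 12.3%), both hairpin lists had a peak and neither CAOV4 line did, against 16.8% of all merged regions of these widths. These regions were narrower, with a median width of 4400 bp and 1800 bp of H3K9ac in the line where it was shorter. The 3 named by the same rule were again wholly under H3K9ac in both lines. At chr4:25914801-25918800 (4.0 kb), H3K27ac covered 2.6 kb in A2780, 3.8 kb in A2780cis, 2.8 kb with shMBD3.26, 2.6 kb with shMBD3.232 and 0.0 kb in both CAOV4 lines. At chr15:20499001-20502600 (3.6 kb), it covered 3.4 kb in A2780 and in A2780cis, 2.4 kb with each hairpin and 0.0 kb in both CAOV4 lines. At chr1:16870201-16873000 (2.8 kb), the lengths were 2.8 kb in A2780, 2.6 kb in A2780cis, 2.8 kb with each hairpin and 0.0 kb in both CAOV4 lines. Full H3K9ac cover in A2780 and A2780cis therefore did not go with a CAOV4 peak at each region. Of the 45 wholly covered regions, 3 had this pattern and 30 had a peak in all 4 lists. Among all 5783 regions, these 2 patterns made up 11.4% and 66.0%.

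The opposite pattern, a peak in both CAOV4 lines and with neither hairpin, was found at 9 regions, or 0.156% (0.0819% to 0.296%), against 2.07% of all merged regions. As shares of all regions, both patterns were thus rarer here than among all merged regions. The reading differs among regions that lacked a peak in both lists of a pair. Of those with neither CAOV4 peak, both hairpin lists had a peak at 661 of 802 here, a higher share than 2370 of 5709 among all merged regions. Of those with neither hairpin peak, both CAOV4 lists had one at 9 of 63 here and at 292 of 2623 among all merged regions. At the first of these, chr18:77378601-77380800 (2.2 kb), H3K9ac covered the region in both lines, and H3K27ac covered 1.6 kb in A2780, 2.2 kb in A2780cis and 0.8 kb in each CAOV4 line. At chr1:46643201-46646400 (3.2 kb), H3K9ac covered 2.4 kb in A2780 and 1.8 kb in A2780cis, and H3K27ac 2.8 kb in A2780, 2.4 kb in A2780cis, 2.0 kb in CAOV4 and 2.2 kb in CAOV4cis. At chr1:145126201-145130200 (4.0 kb), H3K9ac covered 2.0 kb and 2.8 kb, and H3K27ac 0.4 kb in A2780, 3.8 kb in A2780cis, 0.6 kb in CAOV4 and 2.4 kb in CAOV4cis. The hairpin lists were at 0.0 kb at these 3 regions. In the last of them A2780 itself carried a short peak, and over the 9 regions H3K27ac covered a median of 1400 bp in A2780 and 3400 bp in A2780cis.

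At 40 regions, or 0.692% (0.508% to 0.940%), none of the 4 lists had a peak, against 13.9% of all merged regions of these widths. The leading one, chr16:33347201-33351000 (3.8 kb), had 3.6 kb of H3K9ac in A2780 and 3.8 kb in A2780cis, and 2.6 kb and 3.8 kb of H3K27ac in the same lines. At chr12:82801-85200 (2.4 kb), H3K9ac covered 2.0 kb in A2780 and 2.2 kb in A2780cis, and H3K27ac 0.6 kb and 2.2 kb. At chr15:20412801-20416600 (3.8 kb), H3K9ac covered 3.8 kb in A2780 and 3.0 kb in A2780cis, and H3K27ac 3.2 kb and 1.2 kb. These 3 were picked for a large share under H3K9ac and do not stand for the others. Over the 40 regions H3K9ac covered a median of 1200 bp, or 25.7% of the region, in the line where it was shorter. A peak of at least 1 of the described lists lay within 1 kb at 3 of them and within 5 kb at 20. Whether reads map uniquely at the named positions was not tested.

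A peak in 1 CAOV4 line alone was about as frequent at these regions as among all merged regions. A peak in CAOV4cis and none in CAOV4 was found at 535 regions, or 9.25% (8.53% to 10.03%), against 9.71% of all merged regions of these widths. The reverse was found at 575, or 9.94% (9.20% to 10.7%), against 8.83%. The all-region share lies within the interval of the former and below that of the latter. Among the 4981 regions with a peak in at least 1 CAOV4 line, however, 77.7% (76.5% to 78.8%) had it in both, against 68.8% of the 8366 such regions among all merged regions and 50.9% (47.1% to 54.7%) of the 650 such regions without H3K9ac. The numbers of regions with a peak in CAOV4cis alone and in CAOV4 alone were near each other, and their intervals overlap. At the 3871 regions with a peak in both lines, the lengths covered within the region were compared. CAOV4cis covered more at 2008 (51.9%) and less at 1384 (35.8%), with medians of 3200 bp in CAOV4 and 3400 bp in CAOV4cis. These lengths end at the limits of the region, past which the peaks of both lists often ran. CAOV4 and CAOV4cis also differed in list length, with 22826 and 24660 peaks, and the part of this in the covered lengths was not tested.

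H3K27ac was listed at nearly all of the regions in the hairpin cells. Both hairpin lists had a peak at 5528 regions, or 95.6% (95.03% to 96.09%), against 66.0% of all merged regions of these widths. Neither had one at 63, or 1.09% (0.852% to 1.39%), against 18.6% of all merged regions and 20.4% (18.4% to 22.6%) of the common regions without H3K9ac. A shMBD3.26 peak without one of shMBD3.232 was found at 143 regions (2.47%), against 9.41% of all merged regions, and the reverse at 49 (0.847%), against 5.98%. The shMBD3.26 list was also the longer one, with 23270 against 18936 peaks. At the 5528 regions with both, the peaks covered a median of 3600 bp within the region with each hairpin. The covered length was larger with shMBD3.232 at 2604 and smaller at 2256. The covered length in the A2780 list was larger, with a median of 4200 bp, but A2780 helped to define the regions and the hairpin lists did not. Hairpin peaks were counted only up to the limits of the region. At the 63 regions with neither hairpin, H3K9ac in the line where it was shorter covered a median of 1000 bp, and a hairpin peak lay within 1 kb of 1 of them and within 5 kb of 28.

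Regions without a CAOV4 or CAOV4cis peak numbered 802, or 13.9%, against 40.6% of all merged regions of these widths, and their share among common regions without H3K9ac was 53.9% (51.3% to 56.5%). Their median width was 4200 bp. A CAOV4 or CAOV4cis peak lay within 1 kb of 29 of the 802 regions and within 5 kb of 138. At most of these regions, a peak was thus listed neither at the region nor within 5 kb of it in either CAOV4 line. Such distances were not measured for other merged regions, so whether this is particular to these regions was not tested.

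Wider regions had a peak in the described lists more often, and the difference from regions without H3K9ac was present at each width. Among regions over 2 and up to 4 kb with H3K9ac in both lines, 54.3% (51.97% to 56.70%) had a peak in all 4 lists, and this share was 66.1% over 4 and up to 6 kb, 73.1% over 6 and up to 8 kb and 78.3% (75.4% to 81.0%) over 8 and up to 10 kb. Regions without H3K9ac showed 15.0%, 15.7%, 19.8% and 18.6% in the same order. The differences were 39.4 (36.0 to 42.6), 50.4 (45.6 to 54.5), 53.3 (44.3 to 60.1) and 59.7 (45.4 to 69.0) percentage points. The gap in this share thus stood at each width, and it was smallest among the narrowest regions. With each hairpin alone the gap was smaller in the classes over 6 kb than in those up to 6 kb. From the narrowest to the widest class it was 30.9, 33.5, 27.6 and 18.1 points for shMBD3.26. For shMBD3.232 it was 32.6, 32.4, 15.9 and 17.8 points. The intervals of the widest class were wide, at 9.23 to 32.1 and 8.87 to 31.8 points. Regions with H3K9ac already stood at 95.7% and 93.6% in the narrowest class, so their shares had little room to rise. In CAOV4 the share went from 67.5% in the narrowest to 86.3% in the widest class at regions with H3K9ac, whereas it lay between 33.8% and 37.2% at regions without. For shMBD3.26 it was higher in the widest than in the narrowest class with and without H3K9ac, at 99.5% against 95.7% and at 81.4% against 64.7%. The widest class without H3K9ac held 43 regions, so that its shares are imprecise.

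**Figure D2:**
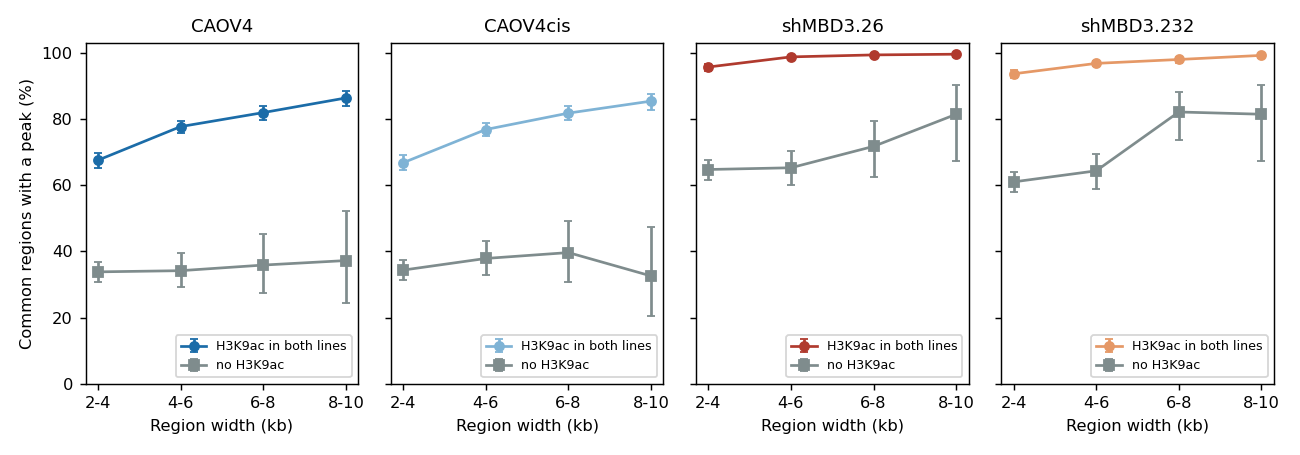
Share of common H3K27ac regions with a peak (y axis, %) against region width in classes of 2 kb (x axis), with 1 panel for each described list. Circles are regions with H3K9ac in both A2780 and A2780cis, squares are regions with H3K9ac in neither, and bars are 95% Wilson intervals for counting error. The circles lie above the squares at each width, and in CAOV4 they go from 67.5% to 86.3% while the squares stay between 33.8% and 37.2%.

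The length under H3K9ac went with presence in the described lists, also among regions over 4 and up to 6 kb. The length was taken in whichever of A2780 and A2780cis had less. With up to 1 kb of H3K9ac, 42.2% (38.7% to 45.9%) of 727 regions had a peak in all 4 lists, and with more than 4 kb 79.2% (76.2% to 82.0%) of 766 did. Longer H3K9ac also meant a wider region, with medians of 3800 and 7800 bp. Among the regions over 4 and up to 6 kb, the share was 43.0% (36.4% to 49.8%) of 207 regions with up to 1 kb, 64.6% (60.4% to 68.7%) with 1 to 2 kb, 68.0% with 2 to 3 kb, 72.8% with 3 to 4 kb and 78.3% with more than 4 kb, the last over 120 regions. The step from the shortest to the next class is larger than the counting intervals, and the later steps are smaller. Within this range the median width was 5000 bp with up to 1 kb of H3K9ac, 4800 bp with 1 to 2 kb and 5500 bp with more than 4 kb. Width thus still differed over the later steps, and its part in them was not tested. In CAOV4 the shares of the first 2 of these classes were 61.4% and 77.1%, and with shMBD3.232 they were 88.4% and 96.3%.

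**Figure D3:**
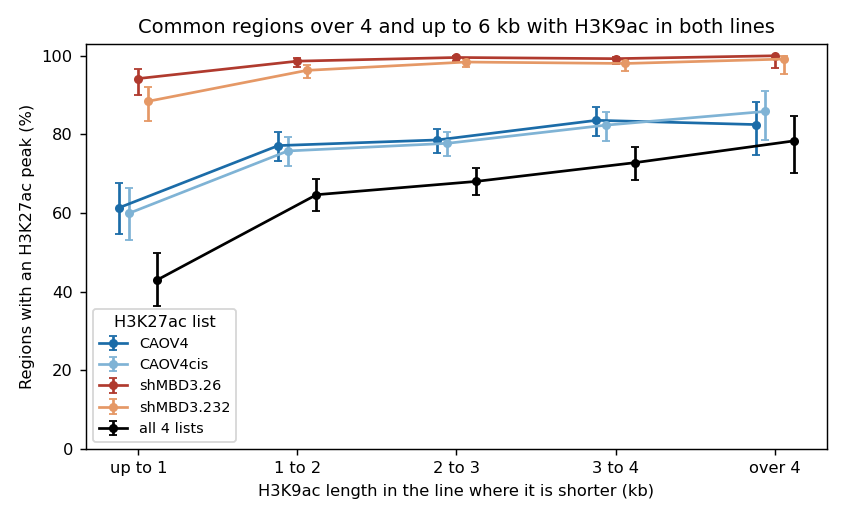
Share of the regions over 4 and up to 6 kb with an H3K27ac peak (y axis, %) against the length under H3K9ac in whichever of A2780 and A2780cis has less (x axis, kb). Colors mark the 4 lists, black marks a peak in all of them, and bars are 95% Wilson intervals for counting error. The share with a peak in all 4 lists is 43.0% up to 1 kb and 78.3% over 4 kb.

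Peaks of the described lists were centred on the H3K9ac stretch shared by A2780 and A2780cis. At its centre, CAOV4 peaks covered 68.3% of the 5652 regions with such a stretch, and CAOV4cis, shMBD3.26 and shMBD3.232 peaks covered 66.6%, 95.5% and 94.3%. At 2 kb from the centre, as the mean of both sides, these shares were 30.6%, 36.2%, 39.1% and 40.3%. At 8 kb they were 8.55%, 9.63%, 6.79% and 7.87%. The 4 lists thus fell to a low level within a few kb. CAOV4 and CAOV4cis were near each other at the centre, and at 2 kb CAOV4cis was the higher.

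**Figure D4:**
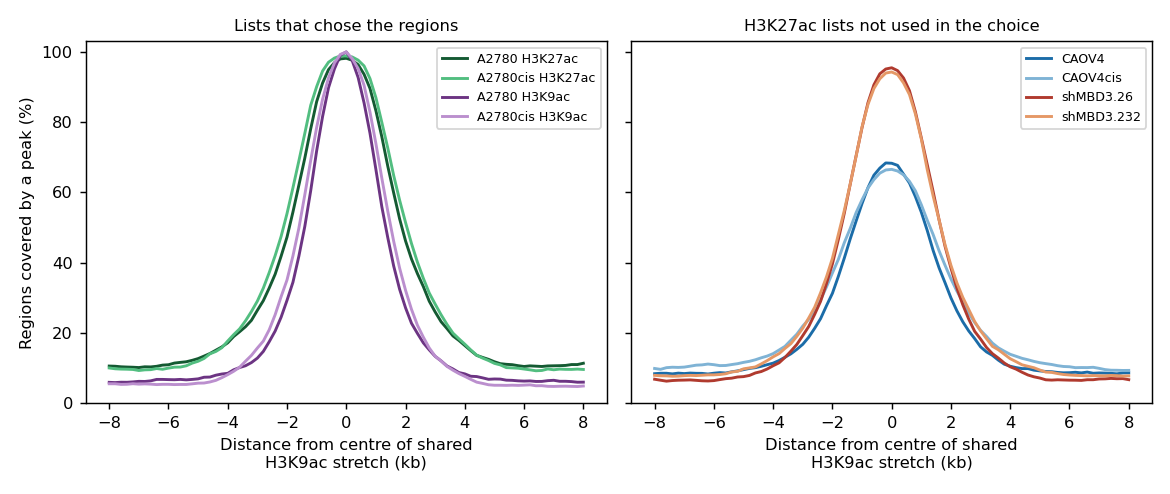
Share of the 5652 regions covered by a peak (y axis, %) at each distance from the centre of the H3K9ac stretch shared by A2780 and A2780cis (x axis, kb). The left panel shows the lists that chose the regions, in which the high centre follows from the choice, and the right panel shows the lists that took no part. The latter stand at 66.6% to 95.5% at the centre and fall to 6.79% to 9.63% at 8 kb.

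Since most shared stretches lie near the middle of the region, position within the region was compared where they do not. In 1791 regions the shared H3K9ac stretch and its mirror image about the centre of the region did not overlap, a comparison added after seeing the data. Among those with a peak, CAOV4 covered on average 81.7% of the H3K9ac stretch and 42.0% of its mirror image, over 1320 regions, with more of the stretch at 814 and more of the mirror image at 126. CAOV4cis covered 81.4% and 48.3%, over 1318 regions. The values were 91.7% and 47.7% over 1738 regions with shMBD3.26, and 91.6% and 53.1% over 1701 with shMBD3.232. In these lists H3K27ac thus lay on the side of the region that carries H3K9ac in A2780 and A2780cis. The A2780 and A2780cis H3K27ac peaks themselves covered 94.3% and 96.8% of the stretch and 69.5% and 80.6% of its mirror image.

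By chromosome, the hairpin lists varied little and the CAOV4 lists varied widely. The share with a peak lay between 96.1% (chromosome 16) and 100% (chromosome 13) for shMBD3.26 and between 94.7% (chromosome 1) and 100% (chromosome 13) for shMBD3.232. For CAOV4 it ran from 62.3% (57.2% to 67.2%) of 361 regions on chromosome 2 to 90.6% (86.3% to 93.6%) of 254 on chromosome 14. CAOV4cis followed, with 57.9% (52.7% to 62.9%) on chromosome 2 and 89.4% (85.0% to 92.6%) on chromosome 14. The same chromosomes were thus lowest and highest in both CAOV4 lines, with intervals that do not overlap. Between these chromosomes the number of listed peaks differed in the same direction, with 859 peaks in CAOV4 and 842 in CAOV4cis on chromosome 2, where A2780 had 1614, and 1312 and 1503 on chromosome 14, where A2780 had 1146. Common regions without H3K9ac had a CAOV4 peak at 17.2% of 64 regions on chromosome 2 and at 45.8% of 48 on chromosome 14. Over all chromosomes their order was similar in part. Chromosomes 17 (51.5% of 134) and 11 (47.1% of 87) were also high with H3K9ac, at 87.6% and 85.1%. Chromosome 4 was low in both classes, at 19.1% of 47 and 68.2%. Chromosomes 7 (48.4% of 91, against 73.0% with H3K9ac) and 15 (23.3% of 60, against 82.7%) differed in rank. The lowest and highest shares rest on few regions, with 4.35% of 23 on chromosome 9 and 51.9% of 27 on chromosome 13. There the regions with H3K9ac stood at 65.9% and 64.6%. How closely the classes go together by chromosome was not tested. The part of the number of peaks listed per chromosome in the shares was not tested.

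**Figure D5:**
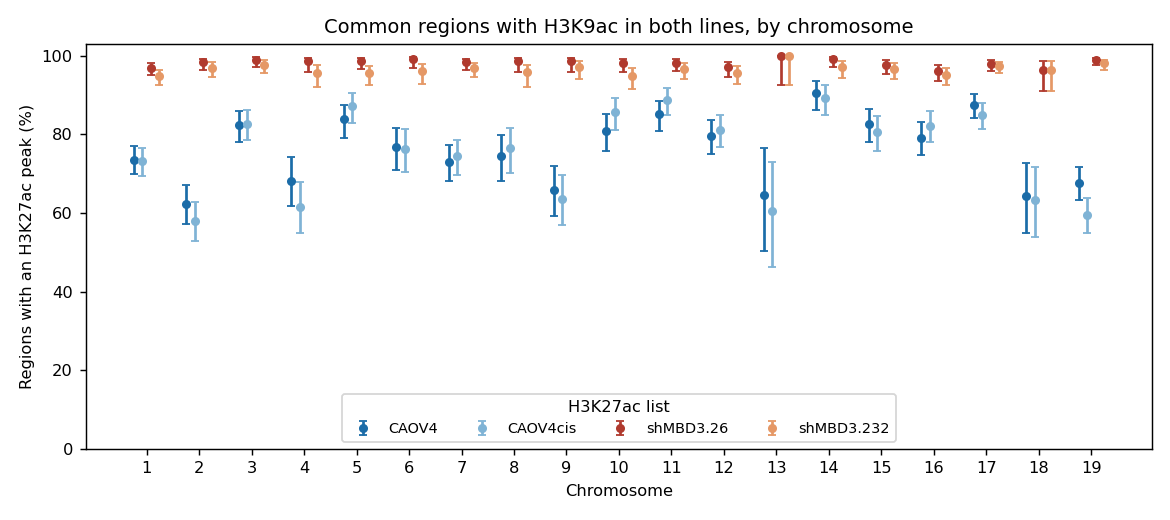
Share of the regions with an H3K27ac peak (y axis, %) in each of the 4 lists that took no part in the choice, by chromosome (x axis). Points are shares and bars are 95% Wilson intervals for counting error. The hairpin lists lie between 94.7% and 100%, whereas CAOV4 lies between 62.3% on chromosome 2 and 90.6% on chromosome 14.

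Chromosome 13 had few of the regions. There, 48 of 176 common regions, or 27.3% (21.2% to 34.3%), had H3K9ac in both lines, and this share was 53.5% to 68.6% on the other chromosomes. The low share came with few H3K9ac peaks in A2780cis, with 102 on the chromosome against 523 in A2780. H3K9ac was listed at 143 of the 176 common regions in A2780 and at 54 in A2780cis. The H3K9ac lists made the choice, so this is a description. Without chromosome 13, which was left out after seeing the data, 60.8% of 9431 common regions qualified and 66.1% of these had a peak in all 4 lists.

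The limits of the rule lay within a gradual change. At the lower width limit, 38.1% of 84 common regions of 2000 bp with H3K9ac in both lines, just outside, and 40.4% of 99 regions of 2200 bp, just inside, had a peak in all 4 lists. At the upper limit, the shares were 76.5% of 68 regions of 10000 bp and 78.0% of 59 regions of 10200 bp. For the overlap with H3K9ac, 35.7% of the 221 regions with 400 bp or less in 1 line had a peak in all 4 lists, against 31.0% of 87 common regions that had H3K9ac within 1 kb in both lines without overlapping it in both. The values just inside and just outside each limit were thus near each other.

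The regions lay mostly apart from each other. Gaps were not measured for other classes, so whether this is particular to these regions was not tested. The median gap between successive ones on a chromosome was 104100 bp, and 473 of 5764 gaps, or 8.21%, were at most 10000 bp. Of the merged regions of any width next to them, 26.4% were common regions with H3K9ac in both lines, against 25.2% of all 31493 merged regions. Regions with H3K27ac in A2780 only made up 35.3% of the neighbors, against 38.4%, and regions with it in A2780cis only 17.8%, as among all merged regions. The neighbors were thus close in makeup to the merged regions as a whole.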

How the data were processed

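ChIP-seq libraries of H3K27ac (A2780, A2780cis, CAOV4, CAOV4cis and A2780 with shMBD3.26 or shMBD3.232) and of H3K9ac (A2780 and A2780cis) were used, with 1 library per condition. Chromatin was digested with MNase to mononucleosomes, of which 5% came from D. melanogaster as a spike-in. The authors aligned paired-end reads with Bowtie2 on Galaxy, quantile normalized the data with an R script and called peaks with MACS2. They deposited 1 peak list per library. The deposited score is 0 throughout and carries no information. Boundaries lie on a grid of 200 bp, so widths are in steps of 200 bp. Reads per peak are not given in the sources used here, which leaves the precision of each peak unknown. Chromosomes 20 to 22, input libraries and cells with a control shRNA were not analysed here.

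Peaks were merged and looked up by interval overlap of 1 bp or more, and regions were classed by which lists had a peak there. Shares carry 95% Wilson intervals and differences of shares 95% Newcombe intervals. The regions named are, for each of 4 patterns of presence, the 3 with the largest share under H3K9ac in the line with less. The regions and these rules were chosen with earlier results of these data known. An annotation and genome of the build of the lists were not used here, so genes, markers of the cell type and sequences planned for the regions are not reported. Scripts ran in Python 3.11.15 (numpy 2.4.6; pandas 2.3.3) with SciPy 1.17.1, with plots by matplotlib 3.10.9. Classing was tested on simulated data. Alternatives were an overlap of 50% of the shorter interval, peaks within 1 kb, peaks wider than 2 kb, equal numbers of the widest peaks per list, other width limits, chromosomes 13 to 19, weighting to the widths of the regions and a comparison with regions with H3K9ac in 1 line. The values without chromosome 13 and the mirror image comparison were added after seeing the data.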

Additional observations from a re-analysis of the deposited data

How the results depend on the processing

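The difference in the share with a peak in all 4 lists stayed positive under each alternative run for it. The other values are counts or shares and have no direction. The choice of peaks moved the shares the most. With described peaks over 2 kb alone, the share of regions with a peak was 59.6% in CAOV4, 62.0% in CAOV4cis, 83.3% with shMBD3.26, 82.1% with shMBD3.232 and 42.0% in all 4 lists, and the difference in the last share from common regions without H3K9ac was 36.8 percentage points. With the 18936 widest peaks of each list, CAOV4 stood at 74.98%, CAOV4cis at 73.0%, shMBD3.26 at 97.3% and all 4 lists at 63.3%. Over 2 and up to 5 kb there were 2738 regions, with 71.0% in CAOV4, 70.1% in CAOV4cis, 96.6% with shMBD3.26, 94.7% with shMBD3.232 and 58.1% in all 4 lists, and a difference of 42.8 points. On chromosomes 13 to 19 there were 2010 regions, with 79.2% in CAOV4, 97.1% with shMBD3.232 and 67.5% in all 4 lists. Common regions of any width with H3K9ac in both lines numbered 7945, and the difference was 53.9 points. Against regions with H3K9ac in 1 line it was 30.0 points. Weighted to the same widths it was 49.2 points. The cause of these moves was not tested, other than that each setting keeps fewer, more or other peaks or regions by construction. In all, 32 values, the weighted one among them, moved by less than their counting interval, or by less than 1.5 times for the number of regions. The other 23 values moved by more. No paired analysis was possible because each condition had 1 library and the values come from no test. Depth limits a single peak to an unknown extent.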

Other observations

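The X chromosome was outside the rule. Applied there, the same steps gave 72 of 317 common regions, or 22.7% (18.4% to 27.6%), with H3K9ac in both A2780 and A2780cis, against 60.2% on chromosomes 1 to 19. H3K9ac was listed at 124 of the 317 regions in A2780 and at 144 in A2780cis. A peak was present at the 72 regions in 72 cases with shMBD3.26, 71 with shMBD3.232, 49 in CAOV4 (68.1%) and 31 in CAOV4cis (43.1%), and in all 4 lists at 26. CAOV4 had 658 and CAOV4cis 399 H3K27ac peaks on this chromosome. On chromosomes 1 to 19, CAOV4cis had the longer list of this pair.

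Common regions without H3K9ac in either line also held H3K27ac in hairpin cells at 81.4% of the 43 regions over 8 and up to 10 kb with each hairpin, against 37.2% in CAOV4 and 32.6% in CAOV4cis.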
